A study of Homo sapiens with 6 samples.

Results

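The 9 genes described here build the MHC class I antigen presentation route: HLA-B, HLA-C, HLA-E and HLA-F, B2M, TAP1, TAP2, TAPBP and NLRC5. They were chosen by name for their role, with earlier results of these data known. They are 9 of 52992 genes to which transcript abundances could be summed. RNA came from NB4, an established cell line of acute promyelocytic leukemia, and each of 3 groups had 2 replicates. All groups carried Cas9 and a vector that expresses a small guide RNA (sgRNA) when doxycycline is added, and per the labels all received 1 µg/ml doxycycline for 7 days. The sgRNA targeted lacZ, a bacterial gene that human cells lack (LacZ, the control), or ARID1A, whose protein belongs to the chromatin remodeler SWI/SNF (labelled sg1 and sg5, after the sgRNA). Per the methods of the study, cells positive for the fluorescent markers of both vectors were sorted, and they grew further without doxycycline before RNA was taken. Nothing states that replicates were separate cultures, so p-values measure the spread between these samples, which may be technical.

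MHC class I molecules carry short peptides from inside the cell to its surface, where CD8+ T cells and natural killer cells inspect them. A heavy chain (HLA-B, HLA-C, or the less variable HLA-E and HLA-F) pairs with the light chain B2M. The TAP1-TAP2 transporter moves peptides into the endoplasmic reticulum, tapasin (TAPBP) holds empty class I molecules at the transporter, and NLRC5 is a transactivator that acts at class I promoters. Leukemic cells can escape T cells by lowering this route, and interferons raise it.

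In these cells 8 of the 9 genes were clearly expressed, and HLA-F was close to absent among the transcripts that were summed to genes. B2M was the most abundant and TAP1 the least abundant of the 8. No class I gene passed the test against LacZ with either sgRNA. The estimated changes of the 8 ranged from -0.15 to 0.27 on the log2 scale with sg1 and from -0.22 to 0.21 with sg5. Replicates of one group often differed by more than this, as HLA-B did in every group and HLA-E, TAP2 and NLRC5 did in sg5.

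The promoters of 4 members are printed below to show how alike the heavy chain genes are to each other and to B2M in this window. The sequences are from RefSeq on GRCh38.p14, where 7 of the 9 members had an entry. HLA-E and NLRC5 were not among them. Each is the 250 bases before the start of the gene in RefSeq, which differs from the GENCODE 29 start used for the coordinates of genes here, so that a window can lie partly (HLA-B, HLA-C, B2M) or wholly (HLA-F) inside the GENCODE gene. Sequences are written 5′ to 3′ on the strand of the gene, and capitals mark motif matches on either strand.
HLA-B: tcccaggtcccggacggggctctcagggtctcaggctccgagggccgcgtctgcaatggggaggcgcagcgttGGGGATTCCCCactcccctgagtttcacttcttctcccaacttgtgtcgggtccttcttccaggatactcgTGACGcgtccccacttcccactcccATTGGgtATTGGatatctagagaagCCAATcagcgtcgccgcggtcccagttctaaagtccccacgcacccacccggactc
HLA-C: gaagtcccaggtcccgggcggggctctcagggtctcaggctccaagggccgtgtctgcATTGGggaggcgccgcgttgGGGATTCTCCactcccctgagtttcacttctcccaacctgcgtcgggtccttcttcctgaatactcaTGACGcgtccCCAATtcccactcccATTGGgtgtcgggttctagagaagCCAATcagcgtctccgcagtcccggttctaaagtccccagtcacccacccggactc
HLA-F: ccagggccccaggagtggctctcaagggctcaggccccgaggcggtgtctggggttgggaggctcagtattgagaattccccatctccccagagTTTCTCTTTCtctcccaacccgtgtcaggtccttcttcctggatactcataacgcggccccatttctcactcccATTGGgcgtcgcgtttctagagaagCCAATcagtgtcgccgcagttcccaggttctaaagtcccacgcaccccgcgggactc
B2M: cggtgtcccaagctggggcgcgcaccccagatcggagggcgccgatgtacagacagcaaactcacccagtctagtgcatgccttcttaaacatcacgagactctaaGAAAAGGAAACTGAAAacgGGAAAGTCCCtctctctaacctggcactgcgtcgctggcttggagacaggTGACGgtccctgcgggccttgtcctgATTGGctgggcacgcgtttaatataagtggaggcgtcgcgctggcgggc
In that order the windows are chr6:31357180-31357429 (minus strand), chr6:31272093-31272342 (minus strand), chr6:29723184-29723433 (plus strand) and chr15:44711267-44711516 (plus strand).

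Motifs were searched on both strands: a consensus of NF-kB sites, GAAA followed by any 2 bases and again GAAA (the core of an interferon-stimulated response element, ISRE), CCAAT (bound by NF-Y) and TGACG (part of sites for CREB and ATF factors). Matches may overlap one another, as the 2 ISRE core matches of B2M do. The NF-kB consensus was found in 5 of the 7 members with a promoter and in 9.96% of 35116 promoters of the same length. Members were counted by gene, but the share over all promoters counts each start site on its own. TAP1 had 2 start sites, and its matches all lay at site 1. The ISRE core was found in 5 of 7 and in 3.02% of all, CCAAT in 5 of 7 and in 32.0% of all, and TGACG in 4 of 7 and in 21.2% of all. HLA-B and HLA-C were alike over 88.98% of aligned bases, HLA-B and HLA-F over 80.39%, and HLA-B and B2M, which do not share a gene family, over 46.62%. The HLA-F window held 1 ISRE core match and 2 CCAAT matches but no match of the NF-kB consensus or TGACG, both of which HLA-B, HLA-C and B2M held. Such gaps were not particular to HLA-F: TAP2 had no match of the NF-kB consensus, TAP1 and TAPBP none of TGACG, and HLA-B and HLA-C none of the exact ISRE core pattern. An element that departs from a searched pattern is missed, so a gap does not show that the promoter lacks the element. A match is a description of these letters and not a site shown to be bound.

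The samples held 46131178 to 54843745 estimated counts in all, and 18514 genes passed the filter on low counts. Along the first principal component (34.4% of the variance) sg1 replicate 1 (34.3) and sg5 replicate 2 (46.8) stood apart from the other 4 samples (-30.3 to -11.3), so the tests were also run without them, and calls that this changes are given. ARID1A itself, the targeted gene, was counted 8164 and 9617 times in the control, 10671 and 8493 times in the samples labelled sg1 and 5805 and 7338 times in those labelled sg5. Its log2 fold change was 0.22 with sg1 (edgeR quasi-likelihood test, Benjamini-Hochberg adjusted p = 0.993) and -0.36 with sg5 (adjusted p = 0.661). Without the outlying samples it was 0.15 with sg1 (adjusted p = 0.988), -0.48 with sg5 (adjusted p = 0.00141) and 0.63 for sg1 against sg5 (adjusted p = 0.00039). ARID1A mRNA was thus not lower in sg1, and a transcript level does not show whether the coding sequence was edited. The study reports loss of ARID1A protein by immunoblot in doxycycline-treated NB4 cells that carried Cas9 and an ARID1A sgRNA. The RNA values here hold no measure of the protein, so for these samples each direction below rests on the labels. Of the promyelocyte markers MPO, PRTN3, AZU1, CTSG and CD33, 5 of 5 had negative estimates with each sgRNA (medians -0.17 and -0.36) and 0 passed the test, while 2 had an unadjusted p under 0.05 in each contrast. Of all 18514 genes tested, 9194 had negative estimates with sg1 and 9519 with sg5, and 769 and 1383 had an unadjusted p under 0.05. ELANE, another promyelocyte marker, had 1 to 9 counts. Of the mature neutrophil markers FCGR3B had 0 counts, while CXCR2 and MMP9 had negative estimates with each sgRNA and 0 passed (joined median -0.70, smallest adjusted p = 0.141). The T cell markers CD3E, CD2 and CD8A reached at most 4 counts but CD3D had 244 to 366, and the B cell marker MS4A1 reached 3 while CD79A had 233 to 551. Of the natural killer cell markers KLRF1 reached 6 counts and KLRD1 21, whereas NCAM1 had 348 to 699 and NKG7 3648 to 5386. CD14 reached 46, CD1C, CLEC9A and FCER1A at most 7, and HBB had 0. None of these marker genes passed the test in edgeR, and their part in the class I values was not tested.

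Levels are compared between genes as TPM, a transcript abundance that accounts for transcript length and library size, by their mean and range over the 6 samples. B2M stood at 2946 TPM (2671 to 3180). Most of its counts lay on 3 short transcripts not annotated as protein coding. These were B2M-212 (46.1% to 48.3%), B2M-201 (26.3% to 27.3%) and B2M-205 (21.4% to 24.1%). Of 15 annotated B2M transcripts 12 were in the data, so its level depends on this assignment. HLA-B followed at 177 (138 to 209), NLRC5 at 127 (111 to 138), HLA-C at 117 (102 to 137) and HLA-E at 91.7 (71.0 to 109). Within each of the 6 samples HLA-B was above NLRC5, HLA-C and HLA-E, and NLRC5 and HLA-C were above HLA-E. NLRC5 was above HLA-C in 4 of 6 samples, so the order of these neighbours is not settled. The NLRC5 value sums 29 transcripts, many of them short and not annotated as coding. Its full-length coding transcript NLRC5-201 had 9.39 to 20.2 TPM. The coding HLA-C-201 had 86.5 to 117 and HLA-E-201 64.0 to 97.3, so on these transcripts NLRC5 was the lowest. TAPBP had 54.998 TPM (50.04 to 58.8), TAP2 34.3 (24.2 to 42.1) and TAP1 9.72 (8.48 to 10.8), and these 3 ranges touched neither each other nor that of HLA-E. HLA-F, at 0.101 TPM, held 5 and 1 counts with the control sgRNA, against 1 and 1 with sg1 and 1 and 3 with sg5. It did not pass the filter and was not tested. Of 196354 deposited transcripts 181857 were summed to genes. Whether the others include copies of HLA-F or other members was not examined, so these levels may be too low.

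**Figure D1:**
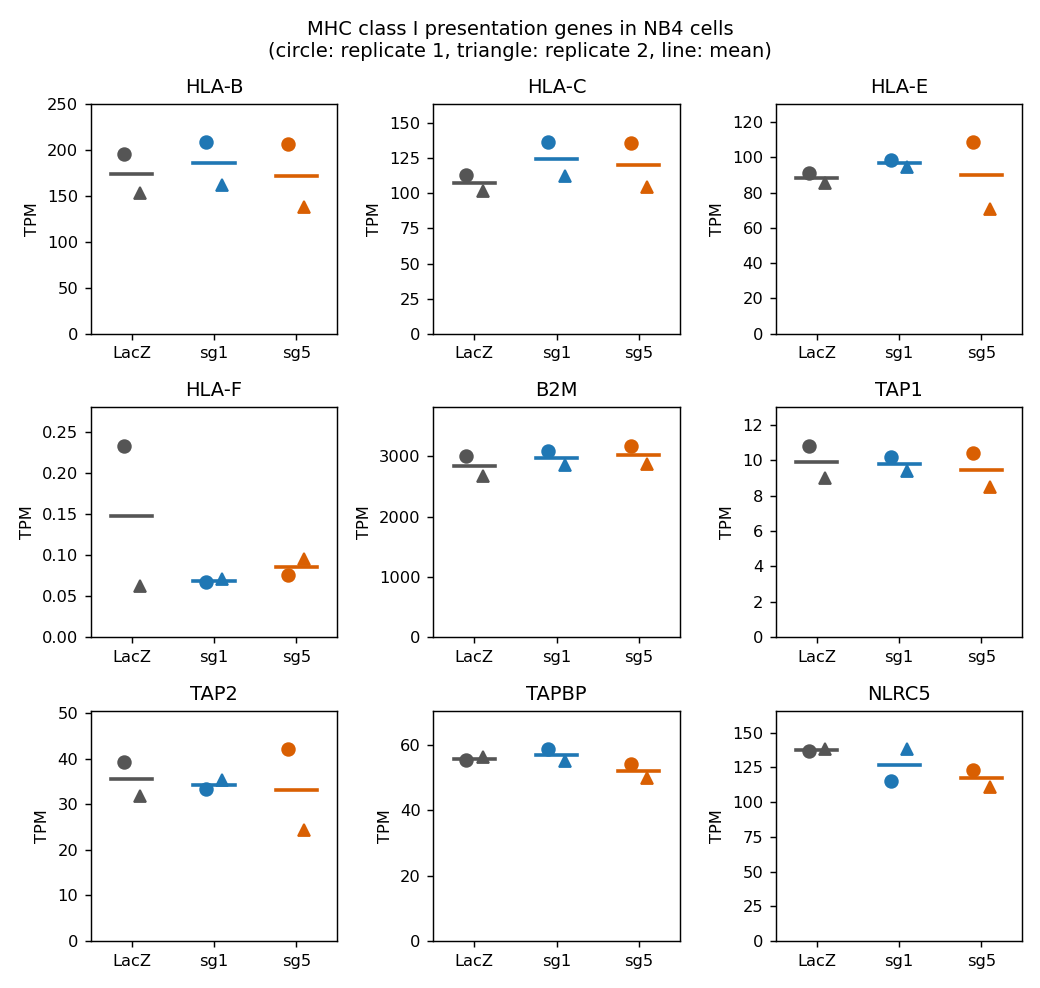
TPM (vertical axes, each from 0) of the 9 class I genes in LacZ, sg1 and sg5; circles are replicate 1, triangles replicate 2 and lines the mean of the 2. For 0 of the 8 expressed genes do all 4 ARID1A-sgRNA samples lie to one side of both LacZ samples, and HLA-B lies between 138 and 209 TPM, with the circle above the triangle in all 3 groups.

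The ratio of TAP1 to TAP2, which form one transporter together, was 0.276 and 0.285 of TPM (LacZ), 0.307 and 0.266 (sg1) and 0.247 and 0.350 (sg5). The sg5 samples thus held both the lowest and the highest ratio. The heavy chains summed amounted to 0.133 and 0.128 of B2M with the control sgRNA, against 0.144 and 0.1296 with sg1 and 0.142 and 0.109 with sg5. By TPM summed over transcripts of every type, B2M was thus above the heavy chains in every sample. For B2M these are mostly transcripts not annotated as coding.

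The heavy chains are the peptide-binding subunits. Differences between groups are given on CPM, counts scaled to a common library size with TMM factors. In such bulk samples fewer cells that express a gene and less RNA per cell cannot be told apart. HLA-B, on chromosome 6 (31269491 to 31357188, GRCh38, GENCODE 29, minus strand), had 196 and 160.5 CPM (LacZ), 227 and 169.8 (sg1) and 216 and 151 (sg5). Replicate 1 was the higher one in each group, and the 3 groups overlapped. On the log2 scale the change was 0.15 with sg1 (SE 0.20, edgeR adjusted p = 0.993) and 0.04 with sg5 (SE 0.20, adjusted p = 0.972); on TPM the sg5 value had the other sign (-0.04, limma).

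HLA-C (chromosome 6, 31268749 to 31272130, minus strand), an inhibitory ligand for natural killer cell receptors as well as a peptide presenter, had the largest positive estimates of the members. The control samples had 115.14 and 108 CPM, sg1 149 and 120.45, and sg5 144 and 114.94. The sg1 samples lay above both LacZ samples, while sg5 replicate 2 fell just under LacZ replicate 1. The log2 estimate was 0.27 with sg1 (SE 0.15, 1.21-fold, 95% interval 0.952 to 1.53, edgeR adjusted p = 0.993) and 0.21 with sg5 (SE 0.15, 1.16-fold, interval 0.915 to 1.47, adjusted p = 0.740).

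HLA-E (chromosome 6, 30489467 to 30494205, plus strand) presents leader peptides of other class I chains to the CD94-NKG2 receptors. It had 162 and 152 CPM with the control sgRNA, against 179 and 175 with sg1 and 197 and 134 with sg5. Both sg1 samples were above LacZ, and the sg5 samples were the highest and the lowest of all 6. Its log2 fold change was 0.17 with sg1 (SE 0.17, edgeR adjusted p = 0.993) and 0.08 with sg5 (SE 0.17, adjusted p = 0.927), and on TPM the sg5 value was -0.0081 (limma). With the 4 heavy chain genes summed before the fit, the change was 0.19 with sg1 (SE 0.17) and 0.10 with sg5 (SE 0.17), with edgeR adjusted p = 0.993 and 0.899.

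B2M (chromosome 15, 44711487 to 44718877, plus strand) is the light chain of all class I molecules. It had 1085 and 980.15 CPM (LacZ), 1175 and 1065 (sg1) and 1184 and 1109 (sg5). The sg5 samples lay above both LacZ samples, and sg1 replicate 2 lay between the LacZ samples. On the log2 scale the change was 0.12 with sg1 (SE 0.13, interval -0.17 to 0.40, edgeR adjusted p = 0.993) and 0.15 with sg5 (SE 0.13, interval -0.14 to 0.44, adjusted p = 0.773).

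TAP1 (chromosome 6, 32845209 to 32853978, minus strand) had the estimates closest to 0. It had 23.2 and 19.6 CPM with the control sgRNA, against 22.8 and 20.4 with sg1 and 22.8 and 19.2 with sg5. Replicate 1 was the higher one in each group, and the means hardly differed. The log2 fold change was 0.01 with sg1 (95% interval -0.34 to 0.36; -0.01 on TPM by limma) and -0.03 with sg5 (interval -0.38 to 0.32), with edgeR adjusted p = 0.996 and 0.975.

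TAP2 (chromosome 6, 32821833 to 32838780, minus strand), the partner of TAP1, had 62.1 and 61.1 CPM (LacZ), 58.1 and 58.2 (sg1) and 63.3 and 48.1 (sg5). Both sg1 samples were under LacZ, and the sg5 samples were the highest and the lowest of the 6. The log2 estimate was -0.08 with sg1 (SE 0.14, edgeR adjusted p = 0.993) and -0.15 with sg5 (SE 0.14, adjusted p = 0.796).

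TAPBP (chromosome 6, 33299694 to 33314387, minus strand) had 121.94 and 119 CPM in the control, against 131 and 124 (sg1) and 127 and 121.72 (sg5). Both sg1 samples lay above LacZ, sg5 replicate 2 lay between the LacZ samples, and the SE was the smallest among the members. Its log2 fold change was 0.08 with sg1 (SE 0.11, edgeR adjusted p = 0.993) and 0.04 with sg5 (SE 0.11, adjusted p = 0.933), whereas on TPM the sg5 value was -0.10 (limma). The retained-intron transcript TAPBP-235 held 7.94% and 12.1% of TAPBP counts with the control sgRNA, against 10.5% and 7.80% with sg1 and 6.04% and 3.71% with sg5, which makes the share lower in both sg5 samples than in the other 4. This was seen after the values were known and was not tested, and shares between transcripts of one gene are estimates.

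NLRC5 (chromosome 16, 56989485 to 57083531, plus strand), the transactivator, had the most negative estimates of the members. It had 244 and 271 CPM (LacZ), 205 and 259.8 (sg1) and 260.35 and 182 (sg5). In each of sg1 and sg5 1 sample was near LacZ and 1 was under it, and those lower ones are sg1 replicate 1 and sg5 replicate 2, the outlying samples of that component. On TPM, which follows the length of the transcripts as well, NLRC5 was at 137 and 138.13 in LacZ, 115 and 138.10 with sg1, and 123 and 111 with sg5, and there both sg5 samples were under LacZ. On the log2 scale the change was -0.15 with sg1 (SE 0.19, interval -0.57 to 0.28, edgeR adjusted p = 0.993) and -0.22 with sg5 (SE 0.19, interval -0.64 to 0.20, adjusted p = 0.775). The full-length coding transcript NLRC5-201 took 30.3% and 37.3% of its counts with the control sgRNA, against 31.6% and 31.1% with sg1 and 41.6% and 28.7% with sg5.

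**Figure D2:**
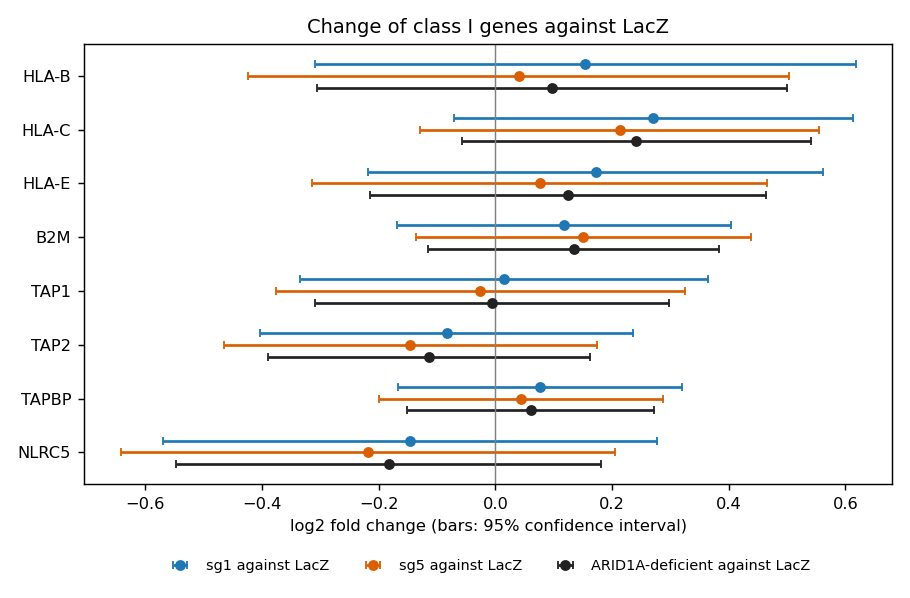
Log2 fold change against LacZ (horizontal axis) of the 8 tested class I genes for sg1 (blue), sg5 (orange) and both joined (black), from edgeR on counts; points are estimates and bars 95% confidence intervals. Every bar crosses 0, with HLA-C farthest to the right and NLRC5 farthest to the left; on TPM the signs of HLA-B, HLA-E and TAPBP in sg5, of TAP1 in sg1 and of TAPBP with both joined are the other way.

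Among all genes 7 of 18514 (0.0378%) passed a false discovery rate of 0.1 with sg1, 18 (0.0972%) with sg5 and 31 (0.167%) with both sgRNAs joined against LacZ. Of the 8 tested members 0 passed in each of these (edgeR), and 0 had an unadjusted p under 0.05; DESeq2 also called 0 of 8, where it called 0.627%, 1.09% and 1.43% of genes, and limma on TPM called 0 of 8. An unadjusted p under 0.05 in edgeR was found for 769 of all genes with sg1, 1383 with sg5 and 1334 with both joined. With so few calls among all genes, a count of 0 among 8 is near the background and is no result about the members. Of the intervals for the members, 16 of 16 for single sgRNAs included no change, and together they reached from 0.641-fold (NLRC5 with sg5) to 1.53-fold (HLA-B with sg1).

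The median log2 fold change of the 8 members was 0.10 with sg1 and 0.04 with sg5, beside medians over all genes of 0.0022 and -0.0105. With sg1 6 of 8 estimates were positive and with sg5 5 of 8; both contrasts share the LacZ samples. The median with sg5 turned to -0.17 without sg5 replicate 1 and to -0.0285 without LacZ replicate 2, and was 0.14 without sg5 replicate 2 and 0.12 without LacZ replicate 1. With sg1 it was 0.0178 without sg1 replicate 1, 0.0306 without LacZ replicate 2, 0.16 without sg1 replicate 2 and 0.17 without LacZ replicate 1. With both sgRNAs joined the median was 0.08 (-0.0286 without sg5 replicate 1), and the estimate of HLA-C was 0.24 (SE 0.13, edgeR adjusted p = 0.742) and that of NLRC5 -0.18 (SE 0.16, adjusted p = 0.796). For 0 of 8 members did all 4 ARID1A-sgRNA samples lie above, or all below, both LacZ samples, a pattern found in 9.76% and 10.4% of all genes tested.

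Between the sgRNAs (sg1 against sg5) 0 of 8 members passed (edgeR; 1 gene of all, 0.0054%, did, and DESeq2 called 5 genes, 0.027%, and 0 members), and 0 had an unadjusted p under 0.05. Of all genes tested, 256 had such a p in edgeR. The estimates of the members ran from -0.03 for B2M to 0.11 for HLA-B. The interval for HLA-B was 0.785-fold to 1.49-fold, the widest of the 8 on the log2 scale.

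Leaving out both samples that stood apart reduced each ARID1A arm to 1 sample, whose spread had to be taken from the LacZ pair. In that fit HLA-C passed with sg5 (log2 fold change 0.36, SE 0.11, edgeR adjusted p = 0.0297), and so did HLA-E (0.33, SE 0.11, adjusted p = 0.0672), with 787 of 19255 genes (4.09%) called. HLA-B was at 0.28 (adjusted p = 0.175) and B2M at 0.20 (adjusted p = 0.507). With sg1 0 of 8 passed (2.2% of genes did; 0 members had an unadjusted p under 0.05), and HLA-C and HLA-E were at 0.11 and 0.16. With both joined (4.2% of genes called) and between the sgRNAs (1.12%) 0 of 8 passed in edgeR, and 2 members in each had an unadjusted p under 0.05. The remaining sg5 sample is replicate 1, which also had the higher HLA-C and HLA-E of its pair, so these calls rest on 1 sample. NLRC5 was at 0.0136 with sg1 and 0.0156 with sg5 in the same fit, in place of the negative values above.

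The class I genes also differed between the replicates of one group. Replicate 1 was higher than replicate 2 in LacZ, sg1 and sg5 alike for 6 of 8 members on CPM (HLA-B, HLA-C, HLA-E, B2M, TAP1 and TAPBP) and for 5 of 8 on TPM, where TAPBP dropped out. The same pattern held for 10.6% of all tested genes on CPM and 11% on TPM. For HLA-B the log2 ratio of replicate 1 to replicate 2 was 0.29 in LacZ, 0.42 in sg1 and 0.52 in sg5, larger than its changes with either sgRNA.

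When a term for the replicate number was added to the model, a comparison chosen after seeing the data, HLA-B was higher in replicate 1 by 0.41 on the log2 scale (SE 0.10, unadjusted p = 0.00678, edgeR adjusted p = 0.9998). HLA-C was at 0.24 (SE 0.10), HLA-E at 0.22, TAP1 at 0.22, TAP2 at 0.14, B2M at 0.13, TAPBP at 0.06 and NLRC5 at 0.0075. All 8 estimates were positive with a median of 0.18, against 0.0003 over all genes. In that model 0 of 8 members passed for sg1 or sg5 against LacZ (1 gene each) or for both joined (0.0162% of genes). No gene of the 18514 passed between the replicate numbers in edgeR, and 453 had an unadjusted p under 0.05. The sample titles give the replicate number after a letter E, alike in every group, and the meaning of E is not stated. No label says that a number marks a shared day or culture. Over all genes the deviations of same-numbered samples did not move together (correlations 0.072, 0.012 and -0.206).

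**Figure D3:**
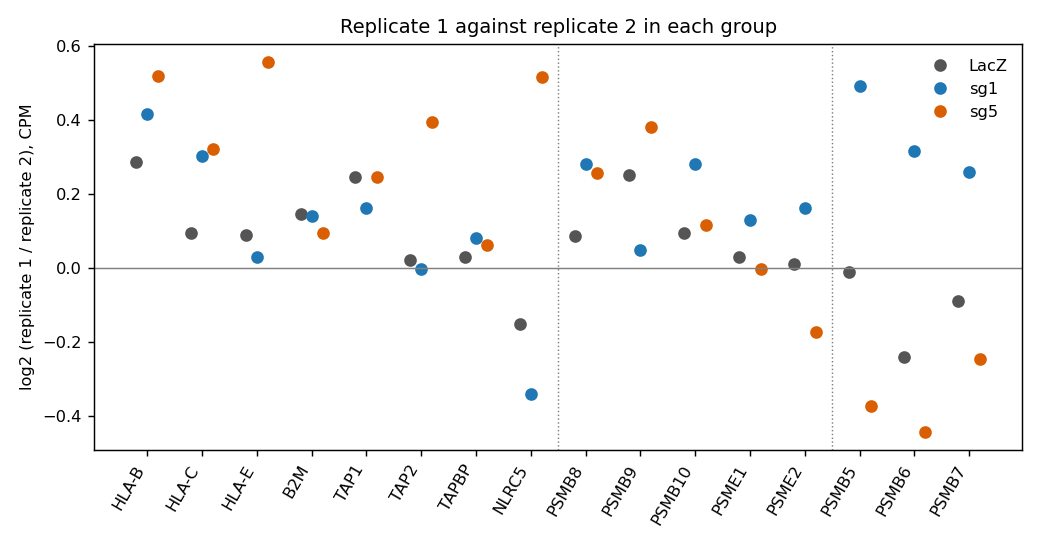
Log2 ratio of replicate 1 to replicate 2 in CPM (vertical axis) for each class I member, immunoproteasome gene and constitutive proteasome gene (horizontal axis, parted by dotted lines), one point per group. The 3 HLA-B points lie at 0.29, 0.42 and 0.52, all above 0, whereas the constitutive PSMB5, PSMB6 and PSMB7 are above 0 in sg1 and under 0 in LacZ and sg5.

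sg5 replicate 2 was the lowest of the 6 samples for 5 of 8 members on CPM (HLA-B, HLA-E, TAP1, TAP2 and NLRC5) and for 6 of 8 on TPM, beside 23.4% and 26.8% of all tested genes. TAP2 and NLRC5 were lower in sg1 replicate 1 and sg5 replicate 2 than in the other ARID1A-sgRNA samples, which was so for 27.7% of genes, and 0 of 8 members were higher there (24.9% of genes). Across the 6 samples, with groups and these samples mixed, Pearson's r of log2 CPM was 0.85 for NLRC5 with TAP2, 0.98 for HLA-C with TAPBP and 0.93 for HLA-B with TAP1. NLRC5 had r = -0.425 with B2M and 0.11 with HLA-B. These are descriptions of 6 points that share groups and depth.

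Among the 5 genes outside the lists whose log2 CPM was closest to the members' mean standardized profile, of 13067 compared over 6 samples, were NCOA2 (r = 0.99), ZNF740 (0.99), RASA3 (0.98) and METRNL (0.98). NCOA2 encodes a coactivator of nuclear receptors. It had 35.0 and 33.0 CPM (LacZ), 38.1 and 35.4 (sg1) and 38.9 and 32.2 (sg5). Like the members' profile it was highest in sg5 replicate 1 and lowest in sg5 replicate 2.

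Around the members, 0 genes of any pathway list passed the test in edgeR with sg1, sg5 or both joined. Without sg1 replicate 1 and sg5 replicate 2 each ARID1A arm is 1 sample. That fit also called more of all genes than the fit with all samples, and the lists were written with earlier results known. The list genes that it called with sg5 are given with their lists below, and these calls are no result about the lists. Values of these genes below are log2 fold changes against LacZ unless a unit is given, the value with sg1 before that with sg5. The proteasome cuts the peptides, and its immunoproteasome form (PSMB8, PSMB9, PSMB10) works with the PA28 activator (PSME1, PSME2). Of these 5 genes 5 were positive with sg1 and 4 with sg5 (medians 0.18 and 0.08), and 1 and 2 had an unadjusted p under 0.05. Of all 18514 genes tested, 9314 were positive with sg1 and 8993 with sg5, and 769 and 1383 had such a p. PSME1 had 117 and 114 CPM with the control sgRNA, against 149.67 and 137 with sg1 and 145 and 146 with sg5. All 4 ARID1A-sgRNA samples were above both LacZ samples, a pattern of 9.76% of all genes tested on CPM. The log2 estimate was 0.31 with sg1 (SE 0.11, edgeR adjusted p = 0.968) and 0.33 with sg5 (SE 0.11, adjusted p = 0.575), and 0.32 for both joined (adjusted p = 0.433; DESeq2 adjusted p = 0.113). Without the outlying samples it was 0.33 with sg5 (edgeR adjusted p = 0.0623) and 0.29 joined (adjusted p = 0.04). PSME2, its partner in the same ring, had 0.27 with sg1 (adjusted p = 0.993) and 0.28 with sg5 (adjusted p = 0.664).

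The constitutive subunits that the immunoproteasome replaces, PSMB5, PSMB6 and PSMB7, were positive with both sgRNAs (medians 0.19 and 0.17), and 0 of 3 had an unadjusted p under 0.05. PSMB5 was at 0.25 with sg1 and 0.33 with sg5, and PSMB7 at 0.17 with each. All 3 were higher in sg1 replicate 1 and sg5 replicate 2 than in the other ARID1A-sgRNA samples, the opposite of TAP2 and NLRC5. The TPM ratio of immunoproteasome to constitutive subunits was 0.415 and 0.369 (LacZ), 0.369 and 0.392 (sg1) and 0.433 and 0.310 (sg5), so the sg5 samples again spanned the whole range.

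Of the 6 genes for trimming and loading, 6 were positive with sg1 and 4 with sg5 (medians 0.07 and 0.14), and 0 had an unadjusted p under 0.05. CALR, the chaperone calreticulin, had 2053 and 2354 CPM with the control sgRNA, against 2845 and 1890.5 with sg1 and 1840.0 and 2965 with sg5. Its high values were sg1 replicate 1 and sg5 replicate 2, and its change was 0.10 with sg1 (SE 0.26) and 0.12 with sg5 (SE 0.26). PDIA3, the oxidoreductase of the loading complex, was at 0.03 and -0.12; without those samples it was at -0.34 with sg5 (edgeR adjusted p = 0.0769) and -0.31 joined (adjusted p = 0.0313). ERAP2, a peptide-trimming aminopeptidase named here after its values were seen, was then at 0.36 with sg5 (adjusted p = 0.0418) and 0.28 joined (adjusted p = 0.0653).

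Of 10 class I-like genes and B2M partners 6 passed the filter, and 4 of them were positive with each sgRNA (medians 0.18 and 0.18). MICB, a stress ligand of the NKG2D receptor, was at 0.17 with sg1 and 0.09 with sg5. MR1, which presents vitamin metabolites, was at -0.11 and -0.04. FCGRT, the B2M-bound Fc receptor, was at 0.60 with sg1 (SE 0.23, unadjusted p = 0.0279, edgeR adjusted p = 0.993) and 0.39 with sg5 (SE 0.23, adjusted p = 0.706), the only gene of the 6 with an unadjusted p under 0.05 in either. Without the outlying samples FCGRT was at 0.63 with sg5 (edgeR adjusted p = 0.0159) and 0.58 joined (adjusted p = 0.00525).

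Of the 15 transcription regulators 8 were positive with sg1 and 9 with sg5 (medians 0.06 and 0.07). RFXANK and RFX5, of the complex that NLRC5 joins at class I promoters, were at -0.08 and 0.06 with sg1 and at -0.17 and 0.08 with sg5. RELA, the NF-kB subunit, was at -0.03 and -0.04. CIITA, the class II counterpart of NLRC5 and named here after its values were seen, had 166 and 150 counts (LacZ), 280 and 217 (sg1) and 246 and 239 (sg5). All 4 ARID1A-sgRNA samples were above both LacZ samples, again a pattern of 9.76% of all genes tested on CPM. Its change was 0.77 with sg1 (SE 0.21, edgeR adjusted p = 0.706) and 0.70 with sg5 (SE 0.21, adjusted p = 0.533). For both sgRNAs joined it was 0.73 in edgeR (adjusted p = 0.349) and 0.74 in DESeq2 (adjusted p = 0.0319), the only gene of the pathway lists that DESeq2 called. Without the outlying samples CIITA passed in edgeR with sg5 (0.77, adjusted p = 0.0745) and joined (0.72, adjusted p = 0.03), and so did IRF8, an interferon regulatory factor also named after its values were seen, with sg5 (0.44, adjusted p = 0.0186).

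Of the 8 interferon receptors, kinases and SOCS1, 0 had an unadjusted p under 0.05 (medians 0.03 and 0.01). TYK2 was at 0.0 with sg1 and -0.125 with sg5, IFNGR2 at 0.05 and 0.02, and IFNGR1 at 0.0083 and 0.16. Of 5 genes for receptors of class I and related molecules 4 passed the filter, and 2 were positive and 2 negative with each sgRNA (medians 0.28 and 0.31). LILRB4, an inhibitory myeloid receptor, had 107 and 81 counts with the control sgRNA, against 177 and 126 with sg1 and 200 and 136 with sg5. LILRB1, which binds class I molecules, went the other way with 104 and 68 counts (LacZ), 36 and 48 (sg1) and 22 and 51 (sg5). In both the groups did not overlap, a pattern of 20.1% of all genes in either direction. The log2 fold changes were 0.80 and 0.93 for LILRB4 (edgeR adjusted p = 0.993 and 0.569) and -0.89 and -1.16 for LILRB1 (adjusted p = 0.993 and 0.636). Without the outlying samples both passed with sg5 in edgeR, LILRB4 at 1.23 (adjusted p = 0.00223) and LILRB1 at -1.82 (adjusted p = 0.00241), and joined at 0.93 (adjusted p = 0.00936) and -1.22 (adjusted p = 0.00855).

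**Figure D4:**
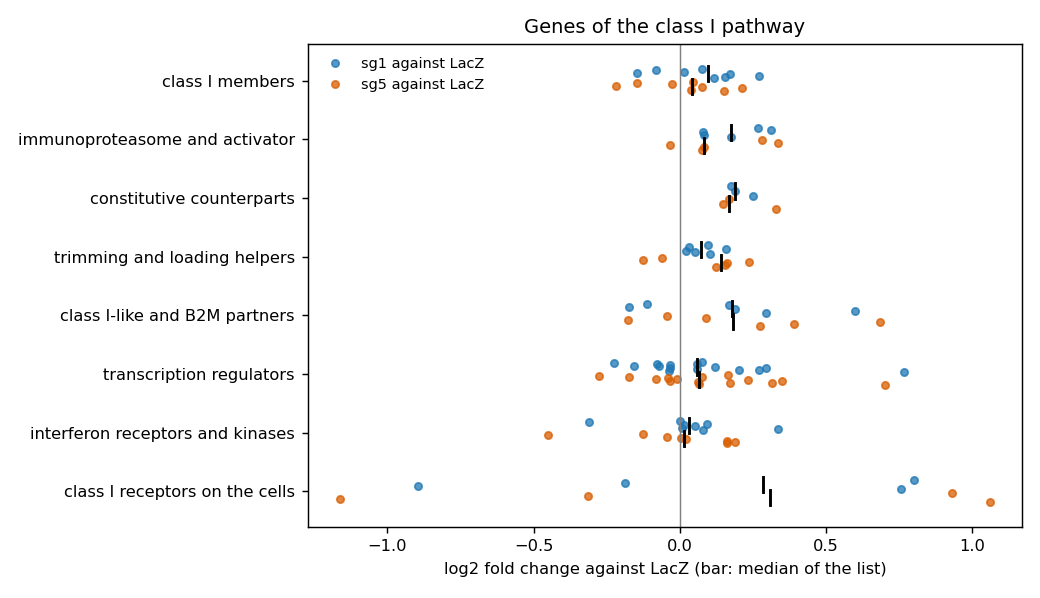
Log2 fold change against LacZ (horizontal axis) of each tested gene in the class I members and 7 pathway lists (vertical axis), for sg1 (blue) and sg5 (orange), from edgeR on counts; black bars are list medians. No point passed the test with all 6 samples; list medians lie between 0.01 and 0.31, and the widest spread, from -1.16 to 1.06 with sg5, is among the receptors of class I molecules.

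How well the genes can be told apart limits these values. The 31-base words in the deposited transcripts of a member were compared with transcripts of other genes that matched the annotation. Of these words, 87.7% for HLA-B, 84.3% for HLA-C, 89.8% for HLA-E and 96.4% for HLA-F occurred in no other gene compared. Deposited transcripts that did not match the annotation were left out. Copies of a member among them would make such shares too high. HLA-B and HLA-C shared 272 words, 8.79% of those of HLA-B and 10.2% of those of HLA-C, so reads could be split between them. For TAP2 the share of words of its own was 68.1%, and the gene overlaps AL669918.1 on the same strand (218 to 719 counts). TAP1 overlaps PSMB9 and PSMB8-AS1 on the opposite strand, and the strand setting of the quantification is not given in the sources used here. For B2M and NLRC5 the share was 99.9% and 99.7%. Heavy chain genes vary between people, and counts depend on how close the alleles of NB4 are to the reference transcripts.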

How the data were processed

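RNA from 6 NB4 samples (2 each of LacZ, sg1 and sg5) was sequenced as paired-end reads. Per the labels and the study's methods, the authors quantified transcripts with kallisto and deposited, for 196354 transcripts, estimated counts (which need not be whole) and TPM, which the authors scaled by effective length. hg19 is named in the submitters' processing notes, and the human transcript set is not given in the sources used here.

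Of the transcripts 181857 (92.6%), with 95.4% to 95.5% of counts, matched GENCODE 29 (GRCh38) by identifier. They were summed to 52992 genes, and estimated counts were rounded to whole numbers. Depth was 46131178 to 54843745 counts per sample. edgeR 4.0.16 (R 4.3.3; TMM, filterByExpr with a minimum count of 10, robust quasi-likelihood test, group as the only term, all 6 samples) was fitted to all genes, with Benjamini-Hochberg adjustment and a false discovery rate of 0.1. Contrasts were sg1 and sg5 against LacZ, their mean against LacZ, and sg1 against sg5. Confidence intervals are 95%. Alternatives were DESeq2 1.42.0 (the study's tool), limma 3.58.1 on log2(TPM + 1) and log2(TPM + 0.1), other filters and scalings, a replicate block and leaving out samples. The scripts were tested on simulated data. Python 3.11.15 joined tables and searched promoters.

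Members and lists were chosen with earlier results of these data known. Named genes were the members, ARID1A, the 2 genes of a list with the highest mean TPM (3 for lists of 8 or more) and any called, and the 5 genes most like the members (of these 1, and of the marker genes 2, are not reported here); others are said to be named after their values were seen. The markers of cell types were named for the check of the cells. Same-numbered samples were not treated as pairs, since no label says that they belong together and their deviations did not move together.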

Additional observations from a re-analysis of the deposited data

How the results depend on the processing

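Of 652 alternative log2 fold changes of class I members, 589 kept the sign of the reported value and 2 passed a false discovery rate of 0.1. The cause of the sign changes was not tested. With a length offset TAPBP with sg5 was -0.0491. With limma on log2(TPM + 1), with or without a filter, TAP1 with sg1 was -0.0128, HLA-E, TAPBP and HLA-B with sg5 were -0.0081, -0.0989 and -0.0355, and TAPBP with both sgRNAs joined was -0.0363; with log2(TPM + 0.1) these were -0.0135, -0.0085, -0.1006, -0.0358 and -0.0369.

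Without sg1 replicate 1 and sg5 replicate 2, 2 members (HLA-C and HLA-E) passed with sg5, and genes called rose from 7, 18, 31 and 1 (sg1, sg5, joined, sg1 against sg5) to 424, 787, 809 and 215. The median of the members for sg1 against sg5 was then -0.1555 in place of 0.06. Signs changed for NLRC5, TAP1 and HLA-B with sg1 (0.0136, -0.068 and -0.0695), NLRC5, TAP1 and TAP2 with sg5 (0.0156, 0.0911 and 0.0379), NLRC5 and TAP1 joined (0.0146 and 0.0115), and, for sg1 against sg5, NLRC5, TAP1, TAP2, HLA-C, HLA-E, TAPBP and HLA-B (-0.002, -0.1591, -0.1194, -0.2531, -0.1697, -0.0384 and -0.3447).

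Leaving out 1 replicate at a time, with a lone sample assumed to vary like the other groups, called 0 members. The median ran from -0.173 (without sg5 replicate 1) to 0.1376 with sg5, and from -0.1033 (without sg5 replicate 2) to 0.23 (without sg5 replicate 1) for sg1 against sg5. With sg1 TAP1 ran from -0.1041 to 0.1434, NLRC5 from -0.3167 to 0.0067 and HLA-B from -0.0761 to 0.3576. With sg5 TAP1 ran from -0.1375 to 0.1122, TAP2 from -0.3388 to 0.0313, NLRC5 from -0.4824 to 0.0091, HLA-B from -0.2248 to 0.2688 and HLA-E from -0.211 to 0.3203. Joined, TAP1 ran from -0.1208 to 0.1278, HLA-B from -0.0378 to 0.2526 and HLA-E from -0.0209 to 0.2446. For sg1 against sg5 TAP1 ran from -0.0725 to 0.1476, TAP2 from -0.1176 to 0.2528, NLRC5 from -0.1591 to 0.3327, HLA-B from -0.1258 to 0.3772, HLA-C from -0.1189 to 0.2072, HLA-E from -0.1514 to 0.3802, B2M from -0.1236 to 0.0328 and TAPBP from -0.0264 to 0.07.

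With the replicate block, the numbers not being known to pair samples, genes called fell to 1, 1, 3 and 0 and 0 members passed; the members' medians were 0.0966, 0.0336, 0.0721 and 0.0648. With the numbers crossed in sg5, added after seeing the data, 59, 157, 194 and 2 genes and 0 members were called. DESeq2 called 116, 201, 264 and 5 genes, and no filter 345, 632, 701 and 86, with 0 members in each. Each of the 8 tested genes had at least 907 counts in every sample.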
